A study of Mus musculus with 50 samples.

Results

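Pecam1, which encodes the endothelial adhesion molecule CD31, was used as a marker of endothelial RNA to rank mammary gland (MG) tumors. The 12 tumors with the highest Pecam1 level (Pecam1-high) and the 12 with the lowest (Pecam1-low) were compared, irrespective of treatment. These 24 tumors were taken from the 50 tumors of the series, of which 49 were ranked and 25 lay between the groups. All tumors arose in female p53R270H/+WAPCre mice, which carry 1 wild-type and 1 R270H mutant p53 allele; Cre under the WAP promoter limits expression of the mutant to the MG. The mice were 8 weeks of age at the start and received chronic subcutaneous injections of IGF1, X10, glargine, insulin or vehicle, with 10 separately labelled tumors per treatment. X10 and glargine are insulin analogues, and the vehicle tumors are titled untreated in the labels. Tumors were isolated at a size of 1 cm3, 24 h after the last injection, and the authors had selected EMT-like tumors with a latency close to the median of their group, so that the series does not cover all tumors of the model. The tumor insulin_13 was left out before the ranking: it held 84726 RPKM of the salivary gland gene Bpifa2, against a median of 0.077 RPKM in the other tumors, and its Pecam1 level of 35.7 RPKM would have placed it among the Pecam1-high tumors.

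Endothelial cells line blood and lymph vessels and are held together by junctional proteins such as CD31 and VE-cadherin. Their growth and stability depend on receptor pathways, including the VEGF receptors, the Tie receptors with their angiopoietin ligands and the Robo4 receptor, and on transcription factors of the ETS and SoxF families. Pericytes and smooth muscle cells cover the vessels from outside. CD31 is also found, at a lower level, on platelets and several leukocytes, so that Pecam1 RNA in a whole tumor does not come from vessels alone.

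The tumors of both groups were chosen by their Pecam1 level, so the Pecam1 difference is a description and was not tested. Pecam1 (chr11:106654217-106750628, GRCm38) was 35.0 RPKM in the lowest Pecam1-high tumor, 41.0 RPKM in the median and 55.1 RPKM in the highest. In the Pecam1-low tumors the lowest, median and highest values were 15.6, 24.7 and 26.7 RPKM. The means were 41.6 ± 6.68 and 23.3 ± 3.68 RPKM (SD, n = 12 each), a log2 difference of 0.83. The distribution was continuous: the lowest Pecam1-high tumor, Untreated_195, held 35.0 RPKM and the next tumor outside the group, glargine_67, held 34.9 RPKM. At the lower end, insulin_14 was inside at 26.7 RPKM and X10_115 outside at 27.2 RPKM. X10_105 and insulin_8 stood apart at the top with 55.1 and 53.3 RPKM, and X10_111 and Untreated_161 had the lowest values, 16.6 and 15.6 RPKM.

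**Figure D1:**
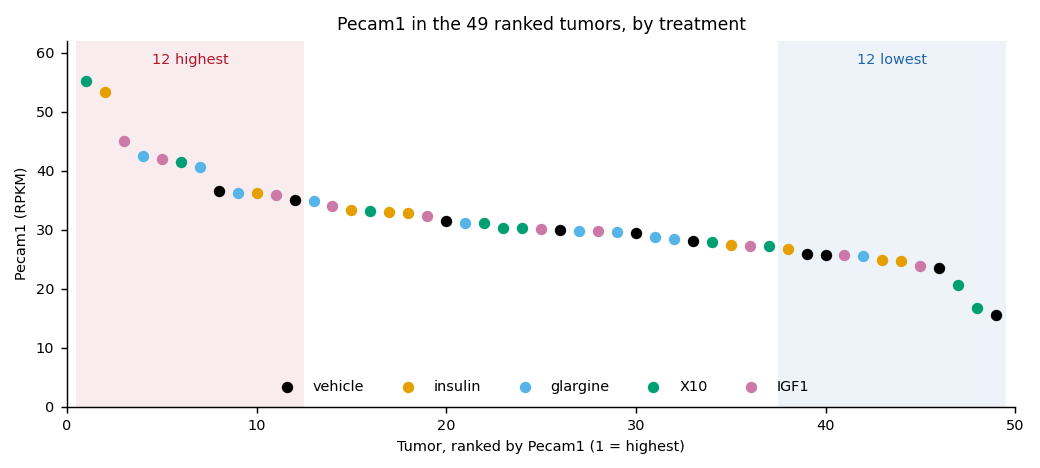
Pecam1 level (RPKM, linear axis from 0) of the 49 ranked tumors, coloured by treatment, with the 12 highest and 12 lowest shaded. Each treatment contributed to both groups, and the values run without a gap at either border (35.0 against 34.9 RPKM and 26.7 against 27.2 RPKM).

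Each treatment was present in both groups. The Pecam1-high group held 2 vehicle, 2 insulin, 3 glargine, 2 X10 and 3 IGF1 tumors, and the Pecam1-low group held 4, 3, 1, 2 and 2 of them in the same order. The treatment make-up did not differ detectably between the groups (chi-square statistic 2.07, permutation test of the group labels, p = 0.84). Compared with vehicle, the Pecam1 level differed by a log2 fold change of 0.22 in insulin (adjusted p = 0.62), 0.23 in glargine (adjusted p = 0.83), 0.12 in X10 (adjusted p = 0.81) and 0.22 in IGF1 (adjusted p = 0.75), and none of them passed the test. The 10 insulin tumors of this comparison include insulin_13, and without it the log2 fold change in insulin was 0.20. Of the 56 endothelial genes described next, 0 passed the adjusted test in any treatment against vehicle (0%, 0%, 0.0657% and 0.00598% of all genes did for insulin, glargine, X10 and IGF1), while 10, 6, 5 and 10 had an unadjusted p under 0.05 for insulin, glargine, X10 and IGF1; over all genes 11.1%, 6.23%, 11.0% and 8.84% did.

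The measured values are RPKM, reads per kilobase of gene and per M mapped reads, which allow levels of different genes to be set side by side. Library sizes recovered from the deposited values were between 26.6 and 51.9 M reads. They were 43.3 ± 6.26 M reads in Pecam1-high and 41.0 ± 5.08 M reads in Pecam1-low tumors (SD, n = 12 each; permutation test, p = 0.33, 0.73 after Benjamini-Hochberg adjustment over the 4 library properties compared). The shares of mitochondrial genes (3.65% and 3.46%), of processed pseudogenes (4.59% and 4.92%) and of the 10 highest genes (7.53% and 7.46%) in the summed RPKM differed by less than the spread between tumors as well (adjusted p of 0.90, 0.73 and 0.90).

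Genes that went with Pecam1 were searched among 16732 other genes with a mean of at least 0.5 RPKM, using limma on log2(RPKM + 0.5), and p-values were adjusted over these genes, without Pecam1; fold changes on this scale understate those of low genes. In total 14 genes (0.0837%) passed an adjusted p of 0.05, of which 13 (0.0777%) were higher and 1 (0.00598%) lower in Pecam1-high tumors. At an unadjusted p under 0.05, 1193 genes (7.13%) were higher and 224 (1.34%) lower (8.47% in either direction), and the median log2 fold change of all genes was 0.04. After quantile normalization these unadjusted counts were 745 higher and 657 lower, so that the excess of higher genes depended on the scaling. In 0 of 16732 genes were the groups free of overlap. These p-values refer to groups ranked on another gene of the same tumors: they tell whether a gene went with Pecam1, not whether anything acted on it. The labels do not state that every tumor came from a different mouse, so the p-values measure the spread between these samples. In bulk tumor RNA, fewer cells of a type and less RNA per cell cannot be told apart.

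Surface receptors of endothelial cells made up 4 of the 14 genes. Eltd1 (now Adgrl4; chr3:151437887-151545086), an adhesion G-protein-coupled receptor of vessels, was 24.4, 39.4 and 58.9 RPKM in the lowest, median and highest Pecam1-high tumor and 11.5, 22.5 and 32.3 RPKM in the Pecam1-low tumors. It was 1.87-fold higher (log2 fold change 0.90 ± 0.15 SE, adjusted p = 0.0088), and 11 of the 12 Pecam1-high tumors exceeded the highest Pecam1-low tumor. Tie1 (chr4:118471191-118490061), the orphan receptor that acts with Tek in angiopoietin signaling, was 9.31, 13.6 and 19.7 RPKM against 4.71, 7.61 and 11.9 RPKM. Its log2 fold change was 0.77 ± 0.15 (adjusted p = 0.046), with 7 Pecam1-high tumors above all Pecam1-low tumors. Clec14a (chr12:58264720-58269290), a C-type lectin of the endothelial surface, was 2.43, 3.48 and 5.16 RPKM against 0.81, 1.83 and 2.62 RPKM (log2 fold change 0.91 ± 0.17, adjusted p = 0.039). Robo4 (chr9:37401897-37415115), a roundabout receptor that stabilizes vessels, was 4.34, 5.44 and 8.11 RPKM against 2.30, 3.64 and 4.79 RPKM (log2 fold change 0.64 ± 0.13, adjusted p = 0.046). For Clec14a and for Robo4, 10 of the 12 Pecam1-high tumors lay above all Pecam1-low tumors.

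The promoters of these 4 receptors are shown because the genes moved together, from 250 bases before to 50 after the start site in RefSeq (GRCm38.p6), read 5′ to 3′ on the strand of the gene. Capitals mark CAGGAAG, a motif bound by ETS factors, searched on both strands. Robo4 lies at chr9:37401722-37402021 on the plus strand and holds the motif from base 201; Adgrl4 lies at chr3:151437632-151437931 (plus), Clec14a at chr12:58269209-58269508 (minus) and Tie1 at chr4:118489800-118490099 (minus), in which these letters were not found.
Robo4: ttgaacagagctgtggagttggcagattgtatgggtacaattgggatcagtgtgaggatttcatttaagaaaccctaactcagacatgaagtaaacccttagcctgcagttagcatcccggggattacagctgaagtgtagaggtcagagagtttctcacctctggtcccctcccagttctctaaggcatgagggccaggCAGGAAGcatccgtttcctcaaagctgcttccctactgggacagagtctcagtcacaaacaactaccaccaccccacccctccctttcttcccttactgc
Adgrl4 (Eltd1): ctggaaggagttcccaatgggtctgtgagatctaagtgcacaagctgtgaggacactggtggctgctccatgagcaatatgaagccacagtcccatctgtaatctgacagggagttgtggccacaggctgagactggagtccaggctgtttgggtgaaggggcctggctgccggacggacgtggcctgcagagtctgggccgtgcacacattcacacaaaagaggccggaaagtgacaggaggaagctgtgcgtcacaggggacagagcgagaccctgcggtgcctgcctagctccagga
Clec14a: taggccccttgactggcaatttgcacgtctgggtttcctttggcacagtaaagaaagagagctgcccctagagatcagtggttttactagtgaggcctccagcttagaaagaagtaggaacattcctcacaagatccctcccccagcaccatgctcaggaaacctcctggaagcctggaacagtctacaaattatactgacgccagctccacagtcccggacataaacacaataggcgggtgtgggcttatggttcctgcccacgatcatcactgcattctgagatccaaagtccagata
Tie1: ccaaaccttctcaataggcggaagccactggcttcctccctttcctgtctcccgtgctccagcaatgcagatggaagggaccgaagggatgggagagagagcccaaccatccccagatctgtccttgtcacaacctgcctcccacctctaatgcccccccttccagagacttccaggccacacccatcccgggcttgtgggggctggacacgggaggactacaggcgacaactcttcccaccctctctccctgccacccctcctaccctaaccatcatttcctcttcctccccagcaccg
Over the 31 endothelial genes with such a sequence, 11 of 40 promoters (27.5%) held CAGGAAG, against 13.27% of all 32851 promoters. The GATA motif AGATAA was held by 3 of 40 (7.5%), against 11.18% of all promoters. These are counts of letters in a window, without a test.

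Cdh5 was the called gene of the junction and surface list, and Myct1, Arhgef15 and Ldb2 were called without being in any list. Cdh5 (chr8:104101625-104144511), VE-cadherin, was 28.1, 34.8 and 46.0 RPKM in the lowest, median and highest Pecam1-high tumor and 17.2, 24.1 and 29.5 RPKM in the Pecam1-low tumors. Its log2 fold change of 0.61 ± 0.10 (adjusted p = 0.011) was smaller than that of Eltd1, yet 11 of 12 Pecam1-high tumors lay above all Pecam1-low tumors. Myct1 (chr10:5593775-5606904), a membrane protein gene first described as a Myc target, had the smallest p: it was 1.74, 2.99 and 4.49 RPKM against 0.70, 1.38 and 1.83 RPKM (log2 fold change 0.93 ± 0.14, adjusted p = 0.0056). Arhgef15 (chr11:68943155-68957480), a guanine nucleotide exchange factor of vascular cells, was 7.01, 10.9 and 14.4 RPKM against 3.69, 6.61 and 9.42 RPKM (log2 fold change 0.64 ± 0.13, adjusted p = 0.046). Ldb2 (chr5:44472132-44799680), a cofactor of LIM-domain transcription factors, was 2.19, 3.18 and 4.31 RPKM against 0.84, 1.78 and 2.60 RPKM (log2 fold change 0.74 ± 0.13, adjusted p = 0.031). All of these genes rose by less than 2-fold.

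Rgs5, a regulator of G-protein signaling that marks pericytes, rose in Pecam1-high tumors, with an adjusted p just under the threshold. It was 38.1, 47.8 and 96.0 RPKM in the lowest, median and highest Pecam1-high tumor and 3.50, 25.7 and 38.5 RPKM in the Pecam1-low tumors (log2 fold change 1.37 ± 0.28, adjusted p = 0.04997). All but 1 of the Pecam1-high tumors, 11 of 12, held more than the highest Pecam1-low tumor. Untreated_161, the tumor with the lowest Pecam1 level, also had the lowest Rgs5 level. When each tumor was left out in turn, Rgs5 was called in 2 of 24 fits. Other pericyte markers were not called: Pdgfrb showed a log2 fold change of -0.16 (adjusted p = 0.92) and Cspg4 of -0.18 (adjusted p = 0.95), and both were chosen here after their values were seen. They were among the 3 genes below 0 in the list of pericyte and smooth muscle genes given below. In that list 14 of 17 genes, Rgs5 included, lay above 0, against 57.8% of all genes.

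A further 4 genes that rose were in none of the vessel lists. Gimap5, a GTPase that maintains lymphocytes, was 4.59, 7.44 and 21.9 RPKM against 1.34, 3.98 and 4.98 RPKM (log2 fold change 1.16 ± 0.22, adjusted p = 0.046). Tspan13, a tetraspanin of the cell membrane, was 13.8, 19.5 and 56.8 RPKM against 6.49, 9.78 and 14.2 RPKM (log2 fold change 1.14 ± 0.18, adjusted p = 0.0085). Asb2, the substrate-binding subunit of a ubiquitin ligase, was 1.76, 4.31 and 13.4 RPKM against 0.09, 1.34 and 2.95 RPKM (log2 fold change 1.49 ± 0.30, adjusted p = 0.046). The 2 highest values of each of these 3 genes were those of X10_105 and insulin_8. H2-M9, a non-classical MHC class I gene, was 1.30, 1.57 and 3.12 RPKM against 0.21, 0.71 and 1.43 RPKM (log2 fold change 0.88 ± 0.18, adjusted p = 0.046).

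The only gene that fell was Ankrd13b (chr11:77470485-77489678), an ankyrin repeat protein that binds ubiquitin. It was 7.18, 9.77 and 15.3 RPKM in Pecam1-high and 12.2, 15.0 and 23.3 RPKM in Pecam1-low tumors (log2 fold change -0.66 ± 0.13, adjusted p = 0.046). The groups overlapped between 12.2 and 15.3 RPKM.

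**Figure D2:**
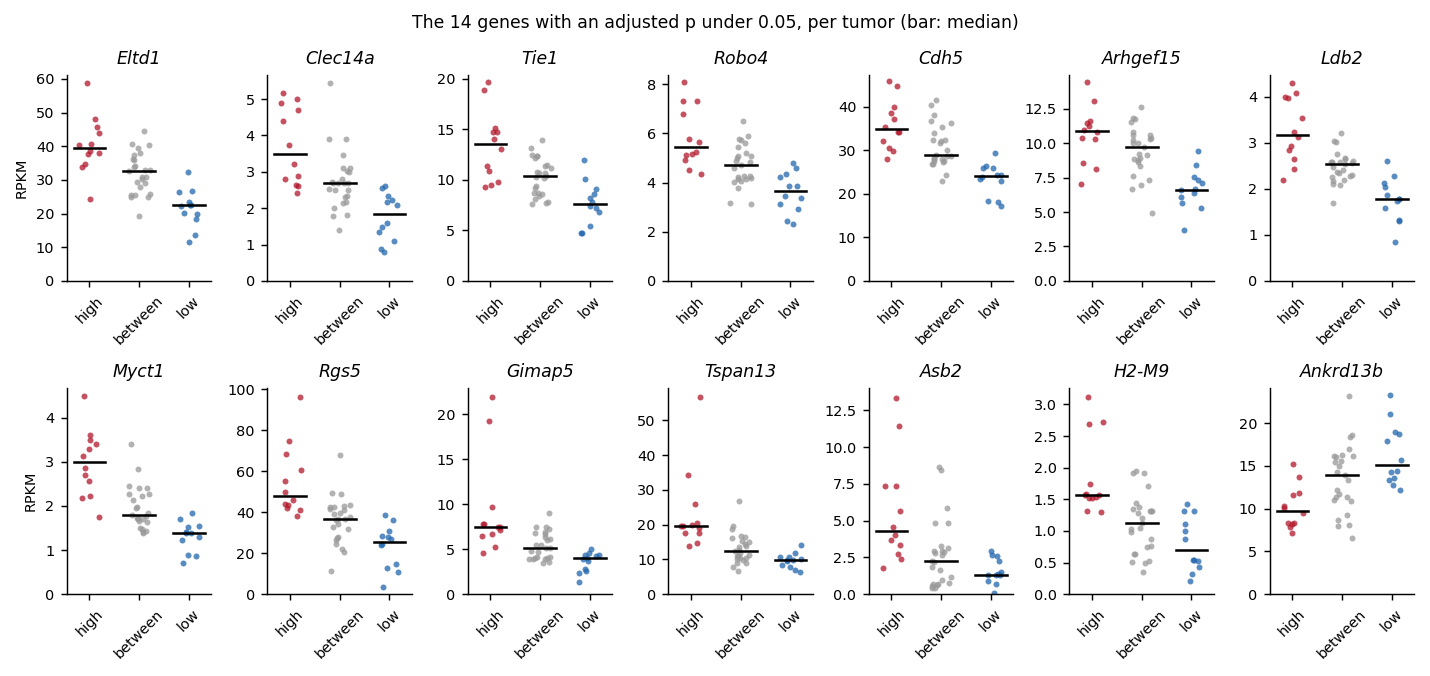
RPKM (linear axes from 0) of the 14 genes with an adjusted p under 0.05 in each Pecam1-high, between and Pecam1-low tumor (12, 25 and 12 tumors); bars are medians. The groups overlap in every gene, and the medians of the tumors between lie between those of the groups.

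How many genes passed the test depended on single tumors. When each of the 24 tumors was left out in turn, between 4 and 19 genes were called, and Myct1, Tspan13, Eltd1 and Cdh5 were called in 24 of 24 fits. Ldb2 was called in 15, Clec14a in 12 and Gimap5 in 7 fits. Ankrd13b was called in 6 fits, Robo4 in 5, Tie1 and Arhgef15 in 4, Asb2 and H2-M9 in 3 and Rgs5 in 2. No fold change turned direction, and the log2 fold change of Cdh5, for example, was between 0.57 and 0.64. Without X10_105 and insulin_8 together, those same 4 genes were called and Gimap5 showed a log2 fold change of 0.91 (adjusted p = 0.070). Without X10_111 and Untreated_161, 5 genes were called. With the pan-leukocyte score as a covariate, limma called 0 genes, and 590 had an unadjusted p under 0.05. The log2 fold changes in that fit were 0.82 for Myct1 (adjusted p = 0.071), 0.88 for Tspan13 (adjusted p = 0.071), 0.83 for Eltd1 (adjusted p = 0.13) and 0.56 for Cdh5 (adjusted p = 0.15), against 0.93, 1.14, 0.90 and 0.61 without the covariate.

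The 3 lists of general endothelial genes (receptors, junction and surface proteins, and transcription factors) held 56 tested genes besides Pecam1. Of these, 5 passed the adjusted test as higher (0.0777% of all genes did) and 0 as lower. At an unadjusted p under 0.05, 40 of 56 were higher, against 7.13% of all genes, and 0 were lower, against 1.34%. A total of 52 had a log2 fold change above 0 (57.8% of all genes did), and the median was 0.60, against 0.04 over all genes. Without X10_105 and insulin_8, 34 of 56 were higher at that unadjusted p (5.01% of all genes) with a median of 0.53, and with the pan-leukocyte score as a covariate the median was 0.47. After quantile normalization 15 of 20 receptors, 11 of 17 junction and surface genes and 7 of 19 transcription factors were higher at the unadjusted p, against 4.45% of all genes. The summed level of the 56 genes was between 1551 and 2466 RPKM in Pecam1-high and between 1324 and 1818 RPKM in Pecam1-low tumors, and none of the 56 was at 0 in any tumor.

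Among the 20 receptors, 16 were higher at the unadjusted p, against 7.13% of all genes, with a median log2 fold change of 0.64 against 0.04. Kdr, the main VEGF receptor of endothelial cells, was 6.17, 10.6 and 17.4 RPKM in Pecam1-high and 2.65, 7.61 and 13.2 RPKM in Pecam1-low tumors, with a log2 fold change of 0.72 ± 0.23 that did not pass the adjusted test (adjusted p = 0.33). Flt1, the VEGF receptor that also acts as a decoy, was 15.7, 26.9 and 46.0 RPKM against 12.2, 19.9 and 84.0 RPKM (log2 fold change 0.08, adjusted p = 0.98), so that its highest value was that of a Pecam1-low tumor. Thbd, thrombomodulin, showed a log2 fold change of -0.35 (adjusted p = 0.85). Flt1 and Thbd were chosen here after their values were seen.

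In the junction and surface list 14 of 17 genes were higher at the unadjusted p, against 7.13% of all genes, with a median of 0.63. Without X10_105 and insulin_8, 10 of 17 of these genes, 16 of 20 receptors and 8 of 19 transcription factors were, against 5.01% of all genes. Besides Cdh5, the smallest p-values belonged to Esam, an adhesion molecule of tight junctions (log2 fold change 0.63 ± 0.14, adjusted p = 0.0998), Mmrn2, an extracellular ligand of Clec14a (0.67 ± 0.15, adjusted p = 0.12), and Emcn, a sialomucin of capillaries and veins (0.52 ± 0.13, adjusted p = 0.16). Tm4sf1, also chosen after its values were seen, had the lowest log2 fold change of the list, -0.38 (adjusted p = 0.75). Of the list, Sele was below the level for testing.

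Of the 19 transcription factors, 10 were higher at the unadjusted p, against 7.13% of all genes (median 0.48), and 0 passed the adjusted test, against 0.0777%. Erg, an ETS factor of endothelial cells, missed the threshold narrowly: it was 3.25, 6.67 and 9.84 RPKM against 2.71, 3.93 and 5.30 RPKM (log2 fold change 0.73 ± 0.15, adjusted p = 0.053). The SoxF genes Sox18 and Sox17 had log2 fold changes of 0.64 and 0.54 (adjusted p = 0.28 each), and Lmo2, a LIM-domain partner of Ldb proteins, had 0.82 (adjusted p = 0.33). Each of these transcription factors had a higher median in Pecam1-high tumors, with overlapping groups.

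**Figure D3:**
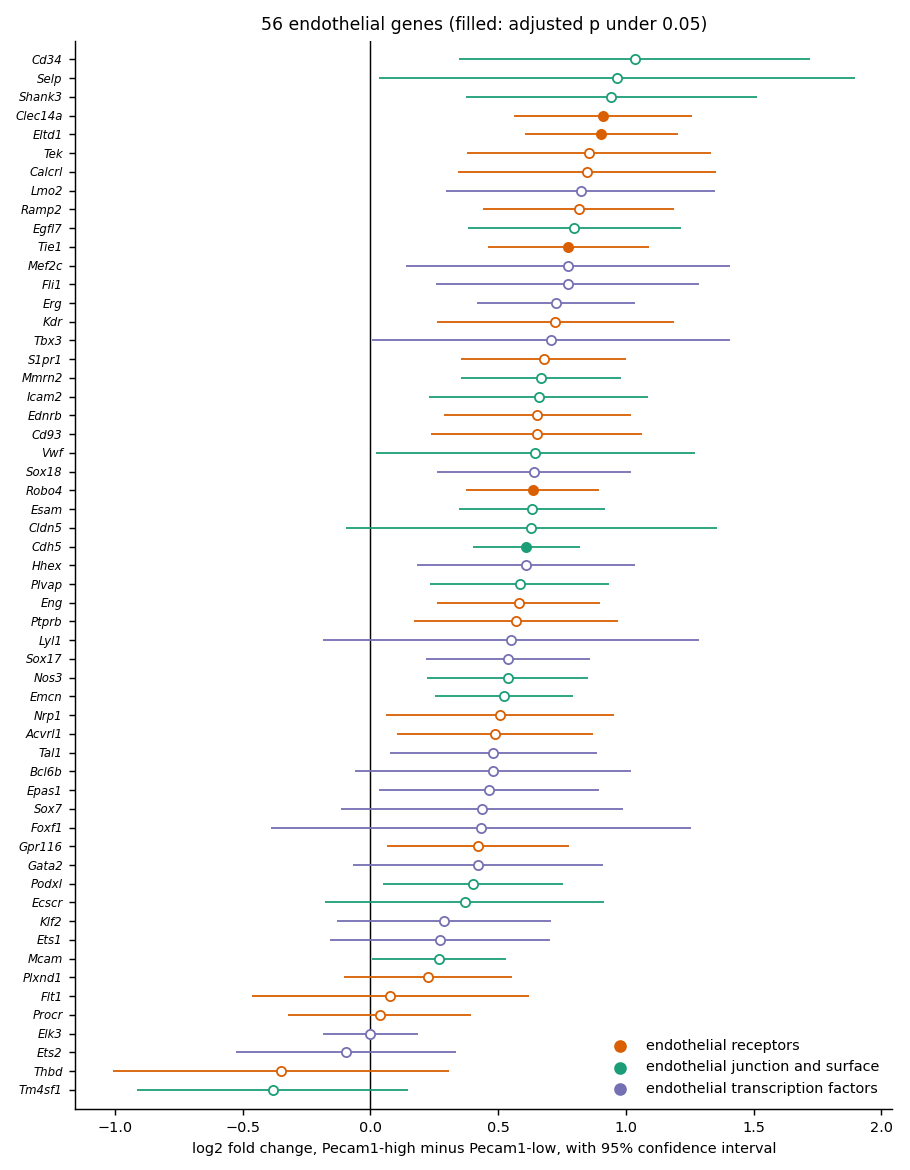
Log2 fold change of Pecam1-high against Pecam1-low tumors with its 95% confidence interval (not adjusted for the number of genes) for the 56 endothelial genes, coloured by list; filled points have an adjusted p under 0.05. A total of 52 genes lie above 0, with 5 filled points, and Tm4sf1 and Thbd lie lowest at -0.38 and -0.35.

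Markers of vessel types were examined next, and 0 of them passed the adjusted test, which only 0.0837% of all genes did. In the arterial and tip cell list 5 of 14 genes were higher at the unadjusted p, against 7.13% of all genes (median log2 fold change 0.42). Its smallest p-values were those of the gap junction gene Gja4 (0.73), the Notch target Hey1 (0.51), the chemokine receptor Cxcr4 (0.50) and the lymphangiogenic ligand Vegfc (0.64), with adjusted p between 0.28 and 0.48. In the venous list 4 of 6 were higher at the unadjusted p (median 0.88): the apelin receptor Aplnr was 11.9, 28.7 and 48.1 RPKM against 1.34, 19.7 and 30.6 RPKM (log2 fold change 1.07, adjusted p = 0.41), the adhesion molecule Vcam1 had 0.92 (adjusted p = 0.40) and the chemokine scavenger Darc 0.84 (adjusted p = 0.41). Nr2f2, the transcription factor that specifies veins, showed a log2 fold change of 0.03 (adjusted p = 0.995).

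All 7 lymphatic genes had a log2 fold change above 0, against 57.8% of all genes (median 0.81), and 5 of 7 were higher at the unadjusted p, against 7.13%. Prox1 averaged under 0.5 RPKM in the 38 tumors outside the Pecam1-high group and so passed the filter on low values only through that group, which makes these counts a description; of the other 6 genes, 4 were higher at the unadjusted p. Prox1, the master transcription factor of lymphatic endothelium, was 0.09, 0.49 and 5.46 RPKM in Pecam1-high and 0.06, 0.18 and 1.28 RPKM in Pecam1-low tumors (log2 fold change 0.88, adjusted p = 0.48). Ccl21a, the chemokine of lymphatic vessels and lymph nodes, reached 129 RPKM in insulin_8 and 123 RPKM in X10_105 against 18.9 RPKM in the highest Pecam1-low tumor (log2 fold change 2.64, adjusted p = 0.46). Flt4, the VEGF-C receptor, and Mmrn1 had log2 fold changes of 0.71 and 1.28 (adjusted p = 0.41 and 0.42). Without X10_105 and insulin_8 the list median was 0.53, with 3 of 7 higher at the unadjusted p, against 5.01% of all genes.

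In the list of capillary genes for lipid uptake, 5 of 9 were higher at the unadjusted p, against 7.13% of all genes (median 0.74). Fabp4, a fatty acid carrier of capillaries and adipocytes, was 32.4, 149 and 431 RPKM against 17.4, 44.7 and 141 RPKM (log2 fold change 1.37 ± 0.43, adjusted p = 0.34). Cd300lg, a receptor of capillary endothelium, and Meox2, a transcription factor for fatty acid transport, had log2 fold changes of 0.84 and 0.74 (adjusted p = 0.19 and 0.20), and the fatty acid receptor Cd36 had 1.18 (adjusted p = 0.48). Fabp4 and Cd36 are expressed by adipocytes too, and the adipocyte list is given with the other cell types.

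Mural cell genes were higher at the unadjusted p in 8 of 17, against 7.13% of all genes, with a median of 0.48. A log2 fold change above 0 was seen in 14 of 17, against 57.8%. Rgs5 was the only one that passed the adjusted test as higher, which 0.0777% of all genes did. Cox4i2, a cytochrome c oxidase subunit of pericytes, showed a log2 fold change of 0.84 (adjusted p = 0.28), and the smooth muscle genes Myh11 and Des had 0.97 and 2.23 (adjusted p = 0.34 and 0.35). The 3 genes below 0 were Pdgfrb, Cspg4 and Angpt1 (-0.30). Des, which is shared with skeletal muscle, ranged from 8.28 to 620 RPKM in Pecam1-high tumors. The list of angiogenic ligands, which also holds Thbs1, Thbs2 and Sema3a, inhibitors of vessel growth, had a median log2 fold change of 0.10, with 2 of 17 higher at the unadjusted p, against 7.13% of all genes. Vegfa was 87.5, 162.4 and 286 RPKM in Pecam1-high and 56.2, 164 and 342 RPKM in Pecam1-low tumors (log2 fold change 0.02 ± 0.28, adjusted p = 0.995), and Cxcl12 had 1.15 (adjusted p = 0.54). Basement membrane genes (2 of 13 higher at the unadjusted p, against 7.13% of all genes, median 0.14) included Col4a1 with 0.39 and Nid2 with 0.32 (adjusted p = 0.48 and 0.52). Of the BMP and Notch targets 3 of 11 were higher at the unadjusted p, against the same share, with a median of -0.09.

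Of the lists of other cell types, 0 genes passed the adjusted test, which only 0.0837% of all genes did. Several of these lists held more genes that were higher at the unadjusted p than the 7.13% of all genes. Their part in the endothelial result was not tested beyond the covariate fit. T and NK cell genes were higher at the unadjusted p in 9 of 11 (median log2 fold change 1.03) and B and plasma cell genes in 4 of 6 (median 1.39). Of the B and plasma cell genes, 3 of 6, Cd79a among them, averaged under 0.5 RPKM in the 38 tumors outside the Pecam1-high group and passed the filter only through it, so that the counts and medians of this list are a description. The same held for 1.16% of all genes. Cd3e, a subunit of the T-cell receptor complex, was 1.77, 3.30 and 24.5 RPKM against 0.16, 1.46 and 4.66 RPKM (log2 fold change 1.25, adjusted p = 0.31). Cd3g, Trbc2 and the NK receptor Klrb1c had 1.57, 1.54 and 1.00 (adjusted p = 0.25, 0.29 and 0.25). The summed T and NK level was between 52.0 and 405 RPKM in Pecam1-high and between 5.40 and 74.7 RPKM in Pecam1-low tumors. The summed B and plasma cell level ran from 34.7 to 38678 RPKM in Pecam1-high and from 1.30 to 129 RPKM in Pecam1-low tumors. The immunoglobulin genes Igkc and Igj had log2 fold changes of 3.07 and 2.48 (adjusted p = 0.34 and 0.33) and the B-cell receptor gene Cd79a had 1.46 (adjusted p = 0.55).

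X10_105 and insulin_8, the tumors with the most Pecam1, had the 2 highest T and NK sums of the 49 tumors, 326 and 405 RPKM, against at most 202 RPKM in the others. Their B and plasma cell sums ranked 1 and 3 of 49, at 38678 and 5437 RPKM, against a median of 46.5 RPKM in the other 47. Without these tumors the median log2 fold change was 0.74 for T and NK genes, with 7 of 11 higher at the unadjusted p, and 0.48 for B and plasma cell genes, with 2 of 6, against 5.01% of all genes. Over the 10 pan-leukocyte genes, 5 were higher at the unadjusted p, against 7.13% of all genes (median 0.46). Without these tumors 1 was, against 5.01% (median 0.32). Ptprc (CD45) was 15.9, 24.5 and 51.3 RPKM in Pecam1-high and 4.59, 16.3 and 28.1 RPKM in Pecam1-low tumors (log2 fold change 0.79, adjusted p = 0.35), and Cytip had 0.76 (adjusted p = 0.48). Macrophage and monocyte genes were higher at the unadjusted p in 2 of 15, against 7.13% of all genes (median 0.43). A log2 fold change above 0 was seen in 12 of 15, against 57.8% of all genes, and the median without X10_105 and insulin_8 was 0.46. Csf1r had 0.24 (adjusted p = 0.91), Ccr2 1.20 (adjusted p = 0.52) and Ly6c2 1.02 (adjusted p = 0.57). Neutrophil genes (0 of 7, median -0.21; S100a8 -0.16, adjusted p = 0.98) and platelet genes (0 of 4 tested, median -0.11; Pf4 0.48, adjusted p = 0.82) were not higher by this measure, and 0 of 6 erythroid genes were. Of the platelet list, Gp1ba, Gp9, Gp5 and Gp6 were below the level for testing.

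The medians of the adipocyte and skeletal muscle lists were above 0, with wide spread between tumors. Of 8 adipocyte genes 5 were higher at the unadjusted p, against 7.13% of all genes (median log2 fold change 1.28): Cfd, complement factor D, was 1.06, 14.3 and 142 RPKM against 0.05, 0.50 and 23.7 RPKM (log2 fold change 2.79, adjusted p = 0.30), and Adipoq, adiponectin, had 1.86 (adjusted p = 0.51). The adipocyte sum was between 7.79 and 249 RPKM in Pecam1-high and between 2.05 and 62.8 RPKM in Pecam1-low tumors. Of 12 skeletal muscle genes 7 were higher at the unadjusted p, against the same share of all genes (median 2.13), among them Pvalb (2.37, adjusted p = 0.39). Acta1, skeletal alpha-actin, was 0.79, 25.7 and 1940 RPKM against 1.14, 2.78 and 313 RPKM (log2 fold change 2.16, adjusted p = 0.67). The muscle sum was between 7.08 and 7683 RPKM in Pecam1-high and between 10.2 and 932 RPKM in Pecam1-low tumors. Both tissues lie around the mammary gland, and how much of them each tumor sample held was not measured.

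**Figure D4:**
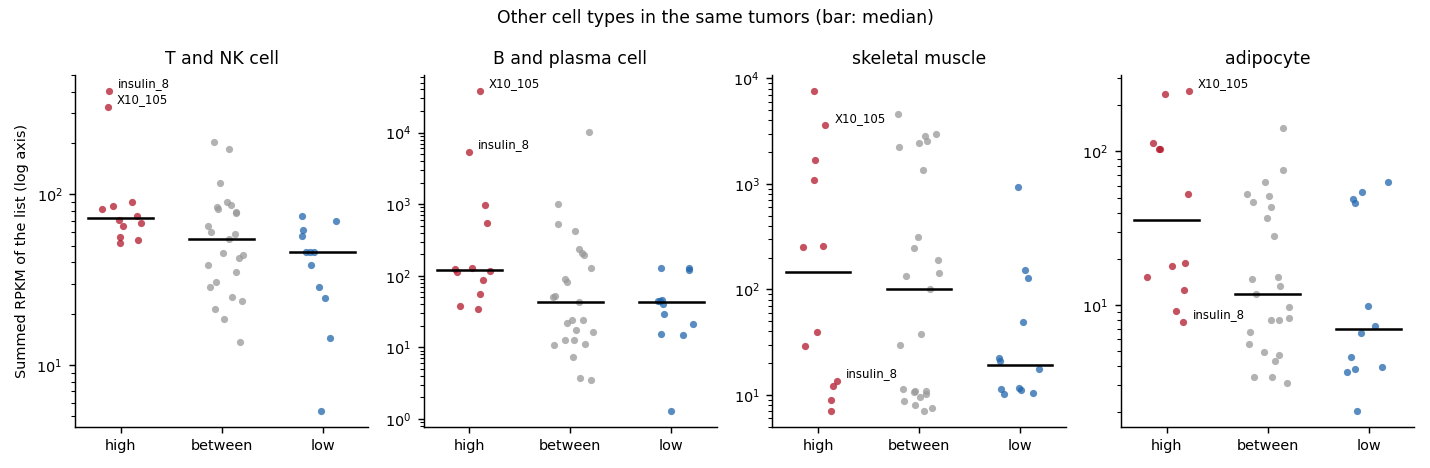
Summed RPKM (log axis) of the T and NK cell, B and plasma cell, skeletal muscle and adipocyte lists in each Pecam1-high, between and Pecam1-low tumor (12, 25 and 12 tumors), with medians as bars and X10_105 and insulin_8 named. The 2 named tumors hold the highest T and NK sums (326 and 405 RPKM), and the groups overlap in all 4 lists.

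Fibroblast genes were higher at the unadjusted p in 3 of 15, against 7.13% of all genes, with all 15 log2 fold changes above 0, against 57.8%, and a median of 0.57. Dpt, the matrix protein dermatopontin, was 11.8, 26.6 and 93.4 RPKM against 0.09, 9.79 and 18.6 RPKM (log2 fold change 2.01 ± 0.48, adjusted p = 0.13). Dcn and Postn had 1.06 and 0.72 (adjusted p = 0.53 and 0.57), and Col1a1, the main collagen of fibroblasts, had 0.04 (adjusted p = 0.99). Of the epithelial lists, 1 of 12 luminal genes was higher at the unadjusted p (median -0.28) and 0 of 8 basal genes were (median -0.32). The paper describes EMT tumors as mainly mesenchymal cells that lack E-cadherin staining, so these lists do not stand for all tumor cells. Whether the RNA of the fibroblast list came from fibroblasts or from tumor cells was not tested. Cdh1, E-cadherin, had -0.18 (adjusted p = 0.98), Krt19 -1.36 (adjusted p = 0.76) and Krt14 -1.58 (adjusted p = 0.77), with wide and overlapping ranges. X10_105, a Pecam1-high tumor, held the highest basal sum of the 49 tumors, 4969 RPKM. Without X10_105 and insulin_8 the median was -0.75 for basal and -0.39 for luminal genes, and Krt14 had -2.35. Of the milk protein, Schwann cell and EMT lists 0 genes were higher at the unadjusted p (7, 6 and 10 tested; medians 0.62, 0.07 and 0.31).

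No gene of the lists for growth and oxygen supply passed either test. In the proliferation list 0 of 16 genes had an unadjusted p under 0.05, against 8.47% of all genes in either direction (median -0.09; Mki67 0.04 ± 0.22, adjusted p = 0.98). The same held for 0 of 15 hypoxia genes (median 0.02), among them Car9, a target of hypoxia-inducible factors, which was 2.67, 5.53 and 18.8 RPKM against 2.83, 9.79 and 30.4 RPKM (log2 fold change -0.39 ± 0.36, adjusted p = 0.86). In the glycolysis list 0 of 13 had an unadjusted p under 0.05, although all 13 log2 fold changes were below 0, against 42.2% of all genes (median -0.20; Hk1 -0.32 and Gapdh -0.43, adjusted p = 0.61 and 0.68). In the interferon list all 12 were above 0, against 57.8% of all genes (median 0.49) and 0 of 12 had an unadjusted p under 0.05; Isg15 had 0.49 (adjusted p = 0.86).

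**Figure D5:**
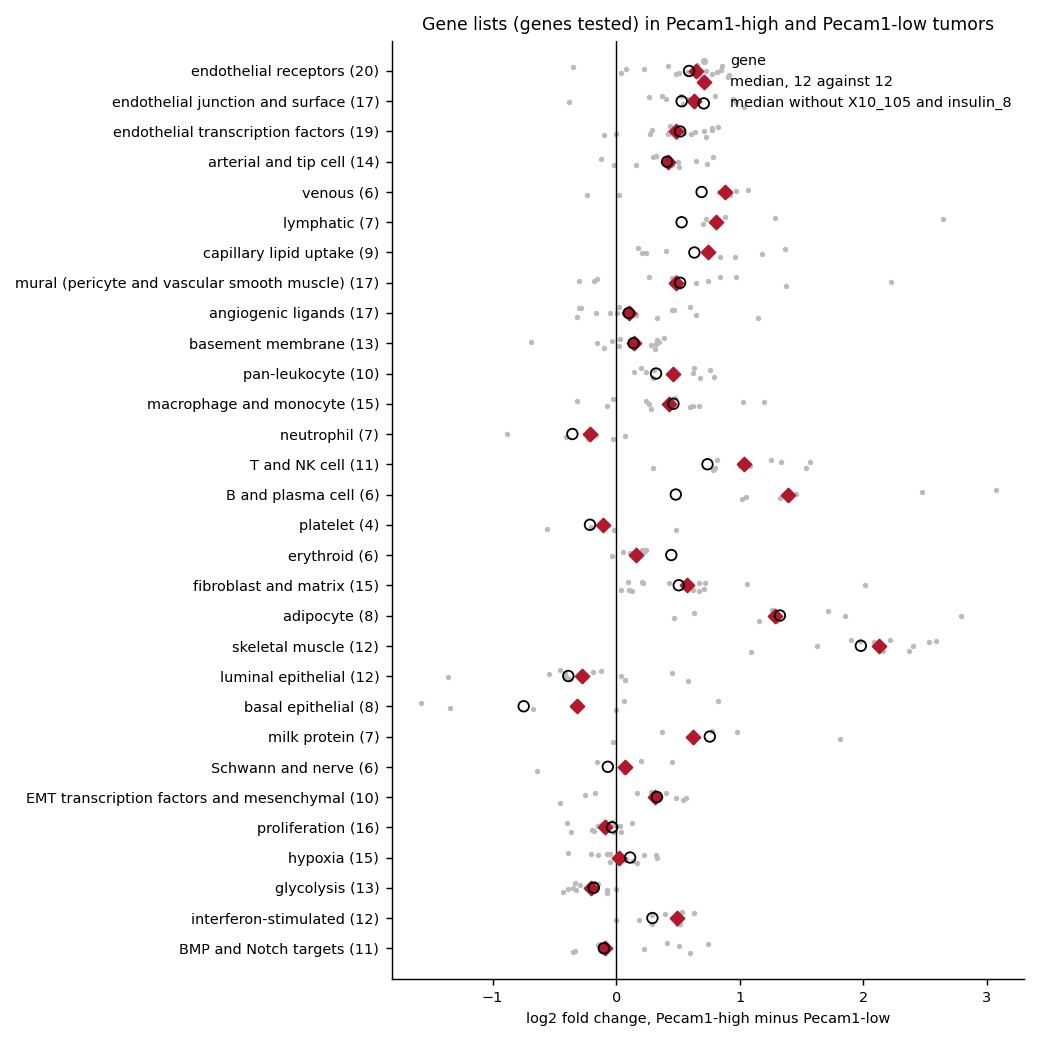
Log2 fold change of Pecam1-high against Pecam1-low tumors for each tested gene of 30 lists (grey), with the list median over all 24 tumors (red diamonds) and without X10_105 and insulin_8 (open circles). The 3 endothelial lists have medians from 0.48 to 0.64, and the B and plasma cell median moves from 1.39 to 0.48 without the 2 tumors.

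The 25 tumors between the groups had taken no part in the comparison and served as separate samples. Their Pecam1 levels covered only 27.2 to 34.9 RPKM. When each gene was fitted on log2 Pecam1 in these tumors, 0 of 16732 genes passed the adjusted test (smallest adjusted p = 1.00) and 305 genes (1.82%) had an unadjusted p under 0.05. A slope gives the log2 change per doubling of Pecam1. Of the 56 endothelial genes, 43 had a positive slope, against 45.8% of all genes, with a median of 0.71 against -0.08. An unadjusted p under 0.05 with a positive slope was found for 6 of 56 endothelial genes, against 0.98% of all genes, among them Cdh5 (slope 1.35, unadjusted p = 0.0016), Kdr (1.74, unadjusted p = 0.0090) and Mmrn2 (1.33, unadjusted p = 0.014); none of these remained after adjustment. The receptor list had 17 of 20 positive slopes (median 0.99).

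Slopes of the other lists lay in both directions in these tumors, and the lists were not tested against each other. The neutrophil list had 7 of 7 positive slopes (median 2.14), the adipocyte list 7 of 8 (median 1.70) and the venous list 6 of 6 (median 0.89), against 45.8% of all genes. The T and NK list had 1 of 11 (median -0.92), the lymphatic list 2 of 7 (median -1.77) and the skeletal muscle list 0 of 12 (median -3.22). Basement membrane genes had 11 of 13 positive slopes, 5 of them with an unadjusted p under 0.05, against 0.98% of all genes (median 1.25). Tspan13 and Asb2, which rose between the groups, had slopes of -1.12 and -2.92 (unadjusted p = 0.19 and 0.12). Over all 49 tumors, which include those used for the comparison, 628 genes (3.75%) had a positive and 36 (0.215%) a negative slope at an adjusted p under 0.05, and 33 of the 56 endothelial genes were among the former.

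Slopes within each treatment were computed over all 49 ranked tumors, including the 24 chosen by Pecam1, and are a description. Of the 56 endothelial genes, 48 had a positive slope in vehicle (median 0.80), 51 in insulin (0.68), 48 in glargine (0.65), 53 in X10 (0.60) and 48 in IGF1 tumors (0.73), with 9 insulin tumors and 10 of each other treatment. Over all genes 60.4%, 54.1%, 52.2%, 54.5% and 48.0% of slopes were positive. A difference of the slope between treatments was found for 0 of 16732 genes by limma; 855 genes (5.11%) had an unadjusted p under 0.05, and 5 of the 56 endothelial genes were among them. The 3 smallest p-values belonged to Gm11966 (adjusted p = 0.072), Lama2 (adjusted p = 0.38) and Gm13086 (adjusted p = 0.43).

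The genes most like Pecam1 over the 49 ranked tumors, by Spearman's rank correlation, were Cdh5 (0.81), Ldb2 (0.80), Myct1 (0.77), Mmrn2 (0.76), Eltd1, Robo4, Tie1 and Rgs5 (0.72 each), and Clec14a and Gimap5 (0.71 each). All points come from the same libraries from which Pecam1 was ranked, so this order is a description.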

How the data were processed

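Poly-A selected RNA of 50 MG tumors was sequenced on the Ion Proton. According to the methods and the submitters' processing notes, the authors aligned reads to GRCm38 with TopHat2 (2.0.10) and Bowtie2 and counted them per gene with HTSeq (0.6.1) in its default mode, which takes strand into account. The deposited values are RPKM for 37701 genes, normalised by the authors to library size and gene length and not log transformed. Each gene's values move in equal steps (reads scaled to 100 M per library), from which library sizes and, for 15806 genes, reads were recovered; at least 97.4% of low values per library were whole.

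The 16733 genes with a mean of at least 0.5 RPKM were fitted with limma 3.58.1 (R 4.3.3) on log2(RPKM + 0.5) with an intensity trend and Benjamini-Hochberg adjustment over all of them other than Pecam1, which ranked the tumors and was tested only in the comparison of treatments. The procedure was tested on simulated data. Treatment make-up and library properties were tested with two-sided permutation tests of 100000 resamples. Gene coordinates were taken from GENCODE M21. The 30 lists (344 genes, all found, 329 tested) were matched through gene IDs. Named genes were the called genes, up to 4 of each list with the smallest p and the first of the list, the 3 with the smallest p between treatments and the 10 most like Pecam1; pseudogenes and numbered gene models were otherwise only counted. Some genes that this rule names are not reported here. The members, lists and rules were chosen with earlier results of these data known. Alternatives changed the pseudocount, filter, scaling, covariates, group size, ranking gene and test (limma voom on recovered reads), and left out tumors.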

Additional observations from a re-analysis of the deposited data

Results flagged for a closer look

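The Pecam1 level of insulin_8 stood apart from the other insulin tumors. It held 53.3 RPKM, and its gap to the next of the 10 insulin tumors was 0.597 of their whole range, above Dixon's critical value for that number. Chance alone marks about 1 in 20 groups, and 5 treatments were examined. Pecam1 in the comparison of treatments and the counts without insulin_8 are given with the results.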

How the results depend on the processing

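The direction of the 14 called genes was the same in every alternative that tested them, whereas their number moved. Instead of 14 genes, with 5 of the 56 endothelial genes among them, the counts were 7 and 3 with a pseudocount of 0.1, 4 and 2 over all genes with a nonzero value, 3 and 2 at a mean of at least 5 RPKM, 6 and 3 after quantile normalization, 8 and 3 after upper quartile scaling, 6 and 2 with treatment, 0 and 0 with the pan-leukocyte score and 5 and 2 with library size as a covariate, 2 and 1 for the upper and lower 24 tumors, 22 and 8 with insulin_13 kept, 4 and 2 without X10_105 and insulin_8 and 5 and 2 without X10_111 and Untreated_161. Limma voom on recovered reads gave 12 and 5, and 7 and 3 with upper quartile scaling of the libraries. With 8 tumors per group the endothelial count moved to 9, and 15 genes were called, with 6 of the 14 among them. Ranked by Cdh5, 6 of 12 Pecam1-high and 10 of 12 Pecam1-low tumors were in the same group, and 4 of the 14 genes were among the 13 called. Ranked by the endothelial score, whose 37 genes were not counted, 15 genes and 1 endothelial gene were called, with 3 of the 14 genes among them. With Pecam1 itself kept in the adjustment, which lowers the adjusted p of other genes, the same 14 genes were called. Leaving out each tumor gave 4 to 19 genes and 2 to 10 endothelial genes, with 4 genes without insulin_8, insulin_18, X10_95, X10_105, X10_111, X10_120, IGF1_124 or IGF1_158 and 19 without IGF1_160. The settings without tumors, the scaled voom fit and that with Pecam1 kept were chosen after seeing the data.

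The slope on Pecam1 in the tumors between the groups gave 0 genes in every alternative other than all 49 tumors (664 genes). Its difference between treatments gave 1 gene at a mean of at least 5 RPKM and 109 over all genes with a nonzero value. The results for Pecam1 by treatment and the treatment make-up were on the same side of the threshold in all alternatives. The difference in mitochondrial share turned to -0.127 percentage points with 16 tumors per group.

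Of the genes named that did not pass the test, some changed sign (log2 fold changes in parentheses): Nr2f2 (-0.063) and Mki67 (-0.032) after quantile normalization; Nr2f2 (-0.00060) and Vegfa (-0.0065) after upper quartile scaling; Vegfa (-0.075) with treatment, Csf1r (-0.17), Col1a1 (-0.058), Mki67 (-0.066) and S100a8 (0.29) with the pan-leukocyte score and Nr2f2 (-0.011) with library size as a covariate. With 8 tumors per group Nr2f2 (-0.051), Vegfa (-0.020), Mki67 (-0.074), S100a8 (1.16) and Flt1 (-0.065) did so, with 16 S100a8 (0.39), with 24 S100a8 (0.13) and Tm4sf1 (0.077), with insulin_13 Vegfa (-0.016) and in voom with upper quartile scaling Vegfa (-0.0082). Ranked by Cdh5, Darc (-0.0098), Vegfa (-0.13), Col1a1 (-0.39), Acta1 (-0.75), Isg15 (-0.19), Pf4 (-0.45), Flt1 (-0.097) and Tm4sf1 (0.085) did, and ranked by the endothelial score Mki67 (-0.079) and S100a8 (0.50). Without X10_105 and insulin_8 the genes were Nr2f2 (-0.032) and Col1a1 (-0.0099), and without X10_111 and Untreated_161 Col1a1 (-0.10), Cdh1 (0.0036), Mki67 (-0.058) and S100a8 (0.11). The cause was not tested for any of these results. No paired analysis was possible because the tumor numbers are unique and no group shares them.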

Other observations

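The genes that were lower in Pecam1-high tumors lay unevenly over the chromosomes, a pattern noticed after the data were seen and given without a test. Of 219 annotated genes that were lower at an unadjusted p under 0.05, 61 (27.9%) were on chromosome 11, which holds 8.45% of the tested genes, and the next chromosome in number of such genes, chromosome 7, held 16. Between 55 and 80 Mb of chromosome 11 lay 35 of them (16.0%, against 2.32% of tested genes). Of the 1181 annotated genes that were higher, 84 (7.11%) were on chromosome 11 and 25 (2.12%) in that stretch. The stretch held 384 tested genes, so most of them were neither higher nor lower at that p. Their median log2 fold change was -0.07, against -0.01 on the rest of chromosome 11 and 0.04 on the other chromosomes. The share of lower genes on chromosome 11 was 26.6% without X10_105 and insulin_8, 22.1% with treatment as a covariate, 42.7% with the pan-leukocyte score as a covariate, 19.2% after quantile normalization, 20.1% with 16 tumors per group and 17.6% when tumors were ranked by Cdh5. In the same order, the share in the stretch from 55 to 80 Mb was 17.9%, 13.4%, 37.1%, 9.69%, 6.85% and 4.17%. Neighbouring genes are not independent of each other, and the border of the stretch was set by eye.

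Ankrd13b, the gene that fell, lies in this stretch, and so does Trp53, the gene mutated in this model. Trp53 was 10.7, 38.6 and 47.7 RPKM in the lowest, median and highest Pecam1-high tumor and 32.2, 54.0 and 103 RPKM in the Pecam1-low tumors (log2 fold change -0.60 ± 0.21, limma, adjusted p = 0.42). Pecam1 itself lies on chromosome 11 outside this stretch. Arhgef15, which lies in the stretch, rose.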
